A study of Arabidopsis thaliana with 48 samples.

Results

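The REVEILLE genes RVE1 to RVE8 encode 8 single-repeat, MYB-like transcription factors of Arabidopsis thaliana. They were taken by locus identifier from a table of 32833 genes: RVE1 (AT5G17300), RVE2 (AT5G37260, also CIR1), RVE3 (AT1G01520, also ASG4), RVE4 (AT5G02840, also LCL1), RVE5 (AT4G01280), RVE6 (AT5G52660), RVE7 (AT1G18330, also EPR1) and RVE8 (AT3G09600, also LCL5). All 8 were among the 19556 genes tested. RNA was sequenced from leaves of 4-week-old soil-grown plants, either wild-type Col-0 (below, Col) or the myb30 knockout line, kept on 10 h of light and 14 h of dark and given high light for 0, 2, 8 or 30 min. Local leaves are, in the usual sense of the word, those under the treatment and systemic leaves those outside it, which the labels do not spell out. Genotype, leaf and time make 16 groups of 3 libraries (48 together), and a repeat was composed from 20 plants. MYB30 is an R2R3-MYB factor, and the mutant allele, the light intensity and the hour of harvest were not given in the sources used here.

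The plant circadian clock is a set of transcription factors that switch each other on and off over the day. CCA1 and LHY, the closest relatives of the REVEILLE proteins, peak at dawn and repress genes that peak in the evening, by binding the evening element in their promoters. RVE8, RVE6 and RVE4 bind the same element later in the morning and activate those genes together with the LNK coactivators, and RVE3 and RVE5 are close relatives with a smaller role. RVE1, RVE2 and RVE7 form the other branch: RVE1 links the clock to auxin synthesis and growth, RVE2 disturbs rhythms when made in excess, and RVE7 was named as an early target of phytochrome, the red-light receptor.

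Both branches can be read in the DNA-binding repeat. The coding sequences below, from RefSeq (TAIR10.1), show the SHAQKYF stretch that gives this MYB class its name, in capitals, with 12 bases on either side, because it splits the family without use of any expression value. RVE3, RVE4, RVE5, RVE6 and RVE8 carry SHAQKYF, and RVE1, RVE2 and RVE7 carry SHAQKFF.
RVE1: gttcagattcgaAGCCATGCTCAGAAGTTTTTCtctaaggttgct
RVE2: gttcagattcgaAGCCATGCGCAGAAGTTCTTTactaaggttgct
RVE7: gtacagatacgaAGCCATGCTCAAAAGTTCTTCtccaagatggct
RVE3: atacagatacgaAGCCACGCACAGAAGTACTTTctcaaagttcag
RVE4: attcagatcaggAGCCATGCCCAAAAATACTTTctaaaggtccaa
RVE5: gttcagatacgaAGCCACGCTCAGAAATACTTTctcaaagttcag
RVE6: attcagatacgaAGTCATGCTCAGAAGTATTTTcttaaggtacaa
RVE8: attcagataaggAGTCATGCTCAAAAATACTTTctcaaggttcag
Over the whole protein, RVE4 and RVE8 were the closest pair, with 69.3% of residues identical over the shorter protein, then RVE3 and RVE5 with 64.5% and RVE1 and RVE2 with 55.1%. The lowest value of the 28 pairs was 31.1%, between RVE6 and RVE7.

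The promoters of 5 members are shown because these genes gave the largest changes from 0 min in Col local leaves, described further on. Each runs from 250 bases before to 50 bases after the annotated gene start, from RefSeq (TAIR10.1), and capitals mark matches to the G-box (CACGTG), the evening element (AAAATATCT) and the CCA1-binding site (AAAAATCT), searched on both strands. No match to the heat shock element (GAANNTTC) lay in any of the 8 windows, and 11.6% of such windows of all protein-coding genes held one. Within 1000 bases before the start RVE3 held 1 match and RVE4 held 2, where 33.2% of all protein-coding genes held any.
RVE7 (chr1:6308194-6308493, minus strand): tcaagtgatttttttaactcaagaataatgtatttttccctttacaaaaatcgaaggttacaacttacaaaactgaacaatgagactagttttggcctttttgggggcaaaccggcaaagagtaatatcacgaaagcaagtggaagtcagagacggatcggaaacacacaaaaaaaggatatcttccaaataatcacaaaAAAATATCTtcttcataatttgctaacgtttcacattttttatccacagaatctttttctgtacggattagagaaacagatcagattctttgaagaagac
RVE3 (chr1:190158-190457, plus strand): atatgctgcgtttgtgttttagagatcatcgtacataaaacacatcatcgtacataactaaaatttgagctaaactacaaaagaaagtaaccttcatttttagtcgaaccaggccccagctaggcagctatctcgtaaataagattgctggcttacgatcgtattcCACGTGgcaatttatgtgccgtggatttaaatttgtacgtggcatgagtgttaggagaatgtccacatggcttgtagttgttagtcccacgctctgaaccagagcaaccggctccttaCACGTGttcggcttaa
RVE5 (chr4:534948-535247, plus strand): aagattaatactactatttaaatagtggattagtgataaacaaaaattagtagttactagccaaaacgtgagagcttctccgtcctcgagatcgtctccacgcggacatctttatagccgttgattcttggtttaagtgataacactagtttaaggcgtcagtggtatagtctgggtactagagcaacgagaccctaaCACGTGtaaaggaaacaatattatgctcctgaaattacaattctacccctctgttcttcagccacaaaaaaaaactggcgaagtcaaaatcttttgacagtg
RVE6 (chr5:21362224-21362523, minus strand): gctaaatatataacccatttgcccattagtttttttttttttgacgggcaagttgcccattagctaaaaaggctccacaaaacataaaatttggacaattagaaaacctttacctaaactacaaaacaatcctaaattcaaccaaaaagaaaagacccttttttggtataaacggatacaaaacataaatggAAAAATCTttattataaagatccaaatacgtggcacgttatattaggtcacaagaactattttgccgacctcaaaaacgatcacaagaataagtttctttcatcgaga
RVE1 (chr5:5692943-5693242, minus strand): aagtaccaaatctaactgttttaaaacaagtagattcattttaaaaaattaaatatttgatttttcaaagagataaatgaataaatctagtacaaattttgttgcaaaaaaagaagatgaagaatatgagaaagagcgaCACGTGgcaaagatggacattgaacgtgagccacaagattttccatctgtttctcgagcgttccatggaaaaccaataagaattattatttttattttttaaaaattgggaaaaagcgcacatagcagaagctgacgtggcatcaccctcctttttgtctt
A G-box, the core site of basic leucine zipper and basic helix-loop-helix factors of light signalling, lay in the windows of 5 of the 8 genes (RVE1, RVE2, RVE3, RVE5 and RVE8). The same letters lay in 7.68% of 27443 windows of protein-coding genes. The evening element lay in the RVE7 window alone among the members, 50 bases before the start, and in 2.82% of all windows. The CCA1-binding site lay in those of RVE2 and RVE6, and in 7.88% of all windows. RVE4 held none of the 4 motifs in this window. A match is a string of letters, and binding was not measured.

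**Figure D1:**
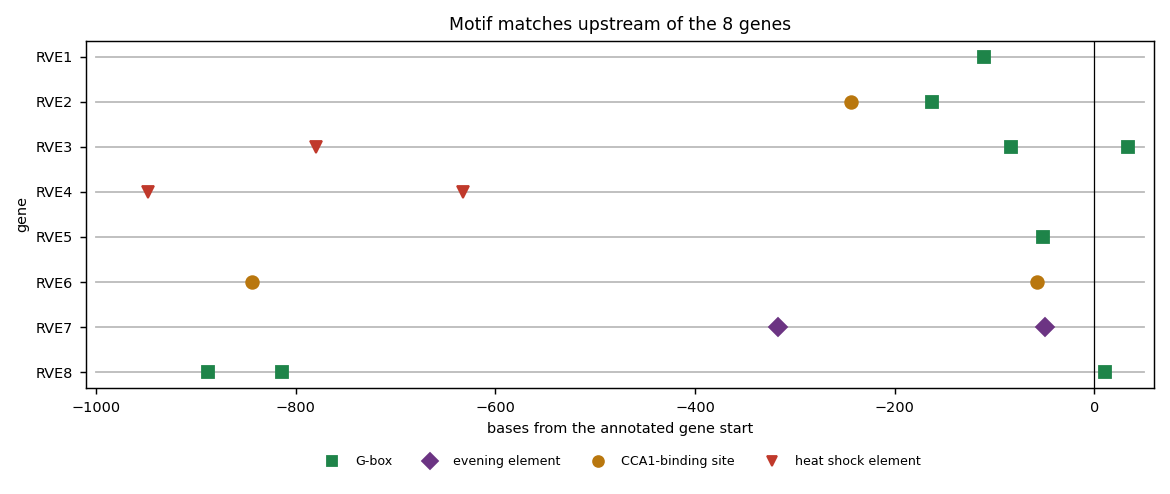
Matches to 4 promoter motifs on either strand from 1000 bases before to 50 bases after the annotated start of each gene; the x axis gives bases from the start and each symbol is 1 match. G-boxes lie in the last 250 bases before the start in RVE1, RVE2, RVE3 and RVE5, and the evening element only in RVE7.

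Libraries held 70514715 to 89402096 reads counted in genes. The mesophyll gene CA1 (432570.0 to 644656 normalised read counts) and the phloem gene SUC2 (8032 to 14065) were high in all libraries. The epidermis gene ATML1 ran from 6349 to 9552 and the guard cell gene FAMA from 437 to 1280. Lower leaf markers were the guard cell gene HT1 (106 to 286) and the epidermis gene PDF1, which ran from 5.87 to 542. The root hair genes COBL9 and EXP7 were at 0 to 3.76. The targeted gene MYB30 stood at 244 to 1039 in Col libraries and 176 to 818 in myb30 libraries, and reads over the whole gene do not check the allele. In 2 libraries the genotype label was in doubt, Col systemic 0 min replicate 3 and myb30 systemic 0 min replicate 3: the non-coding RNA AT2G06995 had 21.9 and 125 in them. Outside systemic leaves at 0 min it ran from 64.0 to 195 in Col libraries, and from 6.48 to 32.7 in those of myb30. The stress factor WRKY40 stood at 33.6 to 60.9 in 9 of the 12 libraries at 0 min. It stood at 1897 in replicate 3 of Col local leaves, at 496 in replicate 1 of Col systemic leaves and at 3317 in replicate 3 of myb30 systemic leaves. Groups follow the labels, and member results that rest on these libraries are also given without them. The labels do not say whether repeats were separate experiments, so p-values measure the spread between these libraries, which may be technical.

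All 8 transcripts were present in every library. Levels are normalised read counts, which the authors made by dividing each gene's reads by 1 size factor per library, and per-kilobase levels divide them by the summed exon length of the RefSeq models. In Col local leaves at 0 min the order per kilobase was RVE4 (4349 ± 202, SD, n = 3), RVE8 (4080 ± 674), RVE3 (3534 ± 562), RVE1 (2264 ± 678), RVE6 (1183 ± 75.1), RVE5 (1101 ± 76.7), RVE7 (565 ± 83.3) and RVE2 (249.8 ± 87.3). The libraries of RVE4, RVE8, RVE3 and RVE1 overlapped from each to the next, as did those of RVE6 and RVE5, whereas those of RVE1 lay above RVE6, those of RVE5 above RVE7 and those of RVE7 above RVE2.

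Across the 16 groups RVE7 had the widest range of the 8 and RVE4 the narrowest. The highest group mean was 6.88 times the lowest for RVE7, 5.98 for RVE3, 4.73 for RVE1, 2.78 for RVE2, 2.40 for RVE5, 2.27 for RVE6, 2.09 for RVE8 and 1.20 for RVE4. When the group means of a gene were put in order, most neighbours overlapped in their libraries: of 15 steps from 1 group to the next, none was free of overlap for RVE2, RVE4 and RVE8, 1 for RVE1, RVE3 and RVE7, and 2 for RVE5 and RVE6. For RVE3 that step parted local leaves at 30 min of both genotypes from the other 14 groups. For RVE5 and RVE6 the same groups led, with Col local above myb30 local. For RVE7 the 4 groups of local leaves at 8 and 30 min stood above the other 12. RVE1 was highest in myb30 local leaves at 0 min and lowest in myb30 systemic leaves at 30 min, where its libraries stood at 799, 1087 and 1434.

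**Figure D2:**
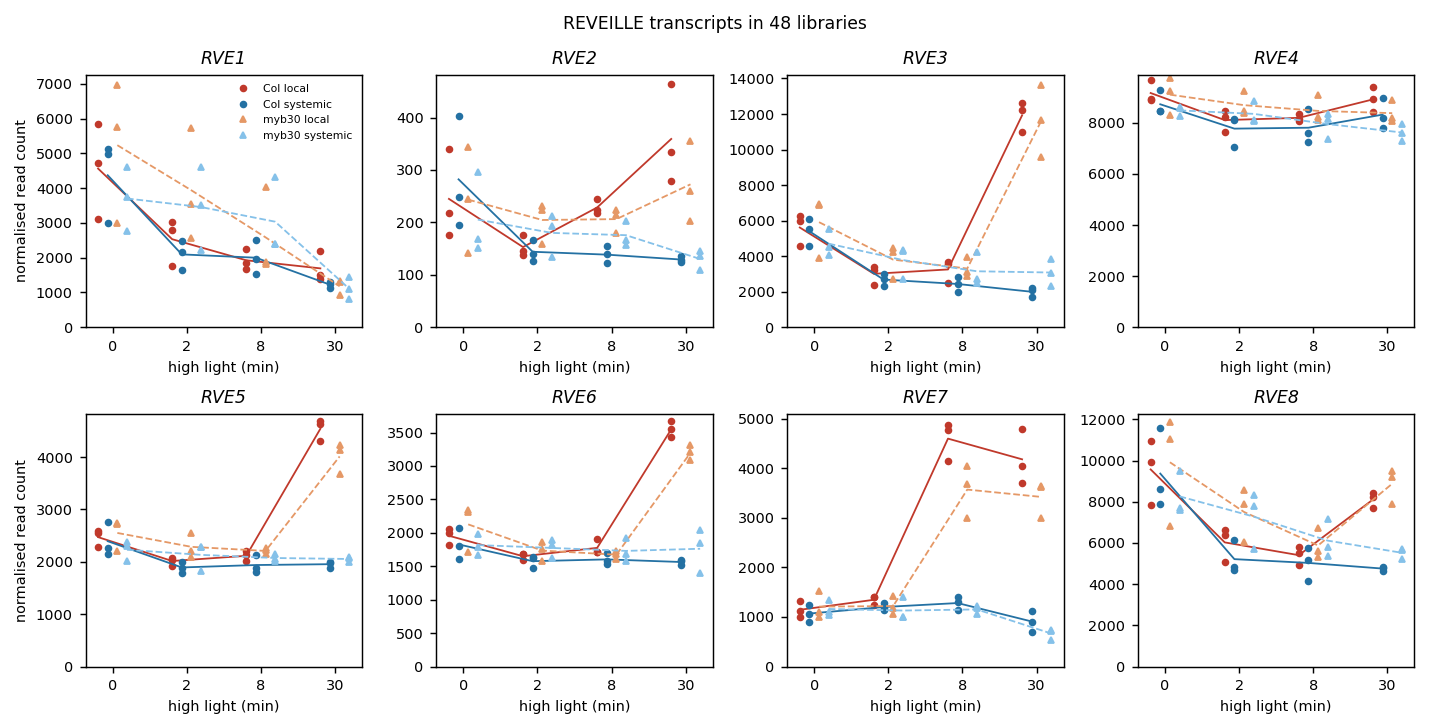
Normalised read counts of the 8 genes in all 48 libraries (y axis, from 0) at 0, 2, 8 and 30 min of high light (x axis, evenly spaced); points are single libraries and lines join the means of 3. RVE7 leaves the other groups in local leaves at 8 min, RVE3, RVE5 and RVE6 at 30 min, and RVE4 stays between 7058 and 9752 throughout.

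In local Col leaves the first member to pass as higher was RVE7, from 8 min on. Its libraries stood at 994, 1327 and 1112 at 0 min, 1238, 1405 and 1396 at 2 min, 4140.3, 4772 and 4880.3 at 8 min and 3709, 4038 and 4793 at 30 min. All libraries at 8 and 30 min lay above all at 0 and 2 min, and 8 and 30 min overlapped. The log2 change from 0 min was 0.24 at 2 min (adjusted p = 0.389), 2.01 ± 0.17, adjusted p = 1.26e-11, at 8 min and 1.87 ± 0.17, adjusted p = 1.08e-11, at 30 min (limma, ± standard error). The step from 2 to 8 min, which uses no 0 min library, was 1.77 ± 0.17, adjusted p = 3.94e-10, and RVE7 was the only 1 of the 8 to pass in it, where 3.53% of all tested genes rose and 1.48% fell. The same step in myb30 was 1.55 ± 0.17, adjusted p = 1.43e-08, again for RVE7 alone, beside 2.13% that rose and 1.37% that fell. In local myb30 leaves RVE7 stood at 989.7, 1529 and 1108 at 0 min, 2993, 3676 and 4039 at 8 min and 3002, 3637 and 3625 at 30 min, again without overlap, with log2 changes of 1.58 ± 0.17, adjusted p = 7.87e-09, and 1.52 ± 0.17, adjusted p = 2.11e-09. A stretch of 615 bases of the RVE7 transcript is 99.8% identical to the gene AT3G10113, and 221 bases are identical to AT3G10110. Reads from those stretches cannot be assigned by their sequence, so the count of RVE7 is uncertain to that extent. AT3G10113 was listed at 0 to 4.11 and AT3G10110 at 69.6 to 201.

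RVE3, RVE5 and RVE6 rose together in local leaves between 8 and 30 min. RVE3 stood at 4591, 6242 and 6005 at 0 min, 3244, 3377 and 2402 at 2 min, 3585, 3660.3 and 2511 at 8 min and 10972, 12202 and 12603 at 30 min in Col. It was lower at 2 and 8 min than at 0 min and then higher than in any earlier group, without overlap in either direction. The log2 change from 0 min was -0.90 ± 0.23, adjusted p = 0.0119, then -0.79 ± 0.23, adjusted p = 0.0106, and 1.10 ± 0.23, adjusted p = 0.000147, and from 2 to 30 min it was 2.00 ± 0.23, adjusted p = 4.03e-09. RVE5 stood at 2274, 2589.7 and 2551 at 0 min, 2204, 2129 and 2012 at 8 min and 4314, 4682 and 4628 at 30 min, a log2 change of 0.88 ± 0.09, adjusted p = 2.54e-10. RVE6, an activator of evening genes with RVE8, stood at 1818, 2059.7 and 1990.1 at 0 min, 1710.1, 1709 and 1904 at 8 min and 3429, 3547 and 3666 at 30 min, a log2 change of 0.86 ± 0.11, adjusted p = 1.42e-08. In both genes every library at 30 min lay above every earlier one. From 2 to 30 min 6 of 8 members rose in Col local leaves (RVE2, RVE3, RVE5, RVE6, RVE7 and RVE8) and 0 fell, beside 24.9% and 24.6% of all tested genes, and in myb30 4 rose (RVE3, RVE5, RVE6 and RVE7) and RVE1 fell, beside 21.1% and 20.9%. The 3 genes rose in local myb30 leaves too, RVE3 to 11644, 9607 and 13626, RVE5 to 4134, 3675 and 4227 and RVE6 to 3308, 3202 and 3082, with log2 changes of 1.01 ± 0.23, adjusted p = 0.000516 (RVE3), 0.66 ± 0.09, adjusted p = 1.82e-07 (RVE5) and 0.60 ± 0.11, adjusted p = 1.37e-05 (RVE6). RVE5 shares 681 bases with AT4G01290 on the opposite strand, and whether the authors' counting used the strand was not given in the sources used here. AT4G01290 stood at 6436 to 7718 over all libraries, with a log2 change of -0.02 (adjusted p = 0.796) in Col local leaves at 30 min. RVE3 shares 65 bases with AT1G01510 on the same strand, which changed by 0.18 in that comparison (adjusted p = 0.0128).

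RVE2, the least abundant member, also rose from 2 to 30 min in local leaves of Col, but not past the threshold in those of myb30. It did not pass against 0 min in local leaves of either line. Its Col local libraries stood at 175, 219 and 340.4 at 0 min, 176, 145 and 138 at 2 min, 218, 223 and 244 at 8 min and 279, 335 and 464 at 30 min. The 30 min libraries lay above those at 2 and 8 min and overlapped those at 0 min. The log2 change from 2 to 30 min was 1.20 ± 0.27, adjusted p = 0.000375, and that from 0 min was 0.57 (adjusted p = 0.0747), and it passed without Col local replicate 3 at 0 min, the library high in WRKY40, or replicate 1 at 30 min. In myb30 the values were 0.40 from 2 min (adjusted p = 0.257) and 0.22 from 0 min (adjusted p = 0.554).

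RVE1 went the other way and was lower in each later group of local leaves. In Col its libraries stood at 3127, 5848 and 4722 at 0 min, 2802, 3036 and 1762 at 2 min, 1859, 2241 and 1679 at 8 min and 1384, 1507 and 2189.5 at 30 min. All later libraries lay below all at 0 min, and the later groups overlapped each other. The log2 change was -0.84 at 2 min (adjusted p = 0.106), -1.21 ± 0.34, adjusted p = 0.00816, at 8 min and -1.41 ± 0.34, adjusted p = 0.000668, at 30 min. In myb30 local leaves RVE1 stood at 2995, 6964 and 5757 at 0 min and 919, 1291 and 1324 at 30 min, a log2 change of -2.08 ± 0.34, adjusted p = 4.28e-06. There it also fell from 2 min, by 1.68 on the log2 scale (adjusted p = 0.00011). In bulk leaf RNA, fewer cells that express a gene and less transcript per cell cannot be told apart.

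RVE8, the activator of evening genes, fell at 2 and 8 min in Col local leaves and rose again by 30 min, whereas its closest relative RVE4 passed in no change from 0 min. RVE8 stood at 7845, 9905 and 10951 at 0 min, 6604, 6381 and 5092 at 2 min, 5780.3, 5509 and 4926 at 8 min and 8402, 8212 and 7697 at 30 min in Col local leaves. The libraries at 2 and 8 min lay below all at 0 min, and those at 30 min overlapped 0 min and lay above 2 and 8 min. The log2 change from 0 min was -0.66 ± 0.17, adjusted p = 0.0134, then -0.81 ± 0.17, adjusted p = 0.000679, and -0.23 (adjusted p = 0.278), and from 2 to 30 min it was 0.44 ± 0.17, adjusted p = 0.0356. That last rise did not pass without replicate 3 at 2 min, or without replicate 1 or 2 at 30 min, nor with quantile normalisation or scaling to the same total. RVE4 stood at 8931, 9654 and 8906 at 0 min and 8417, 8940.4 and 9386 at 30 min, in overlap. Its 12 log2 changes from 0 min ran from -0.18 to -0.02, with 95% intervals that spanned -0.32 to 0.12, and 0 passed by limma, edgeR or DESeq2, where 5 had an unadjusted p under 0.05. With libraries scaled to 1 common total, the median change over all genes in Col local leaves at 30 min shifted by -0.33, and RVE4 changed by -0.38 (adjusted p = 9.46e-05) and RVE8 by -0.56 (adjusted p = 0.00702) there.

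Counted over the members, 3 of 8 fell and 0 rose in Col local leaves at 2 min (RVE3, RVE5 and RVE8), where 4.75% of all tested genes fell and 5.92% rose. At 8 min 3 fell (RVE1, RVE3 and RVE8; 12.7% of all) and 1 rose (RVE7; 13.3% of all). At 30 min 4 rose (RVE3, RVE5, RVE6 and RVE7; 27.2% of all) and 1 fell (RVE1; 26.5% of all). In myb30 local leaves 0 of 8 passed at 2 min by limma, edgeR or DESeq2, 3 with an unadjusted p under 0.05, where 1.66% of all genes passed. At 8 min 4 fell (RVE1, RVE3, RVE6 and RVE8) and 1 rose (RVE7) beside 9.25% and 9.48% of all, and at 30 min the same 4 genes as in Col rose and RVE1 fell beside 22.5% and 21.6%. The median log2 change of the 8 was -0.46, -0.19 and 0.72 at 2, 8 and 30 min in Col and -0.23, -0.27 and 0.41 in myb30, and that of all tested genes was between -0.01 and 0.01 in each.

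Several early falls did not pass when a single library was left out, although no log2 change of theirs moved by more than the factor of 1.5; that of RVE3 at 2 min in Col local leaves ran from -0.69 to -1.10 over all alternatives. Of the 3 falls at 2 min in Col local leaves, 0 passed without replicate 2 or 3 at 0 min (replicate 3 is the library high in WRKY40) or replicate 3 at 2 min, and RVE3 and RVE8 passed without replicate 1 or 2 at 2 min. At 8 min RVE1 and RVE3 did not pass without replicate 2 at 0 min, nor RVE3 without replicate 3 at 8 min. In myb30 local leaves at 8 min RVE1, RVE3 and RVE6 did not pass without replicate 2 or 3 at 0 min or replicate 1 at 8 min, nor RVE1 without replicate 3 at 8 min. The 5 calls at 30 min in local leaves passed in both genotypes without any 1 library.

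**Figure D3:**
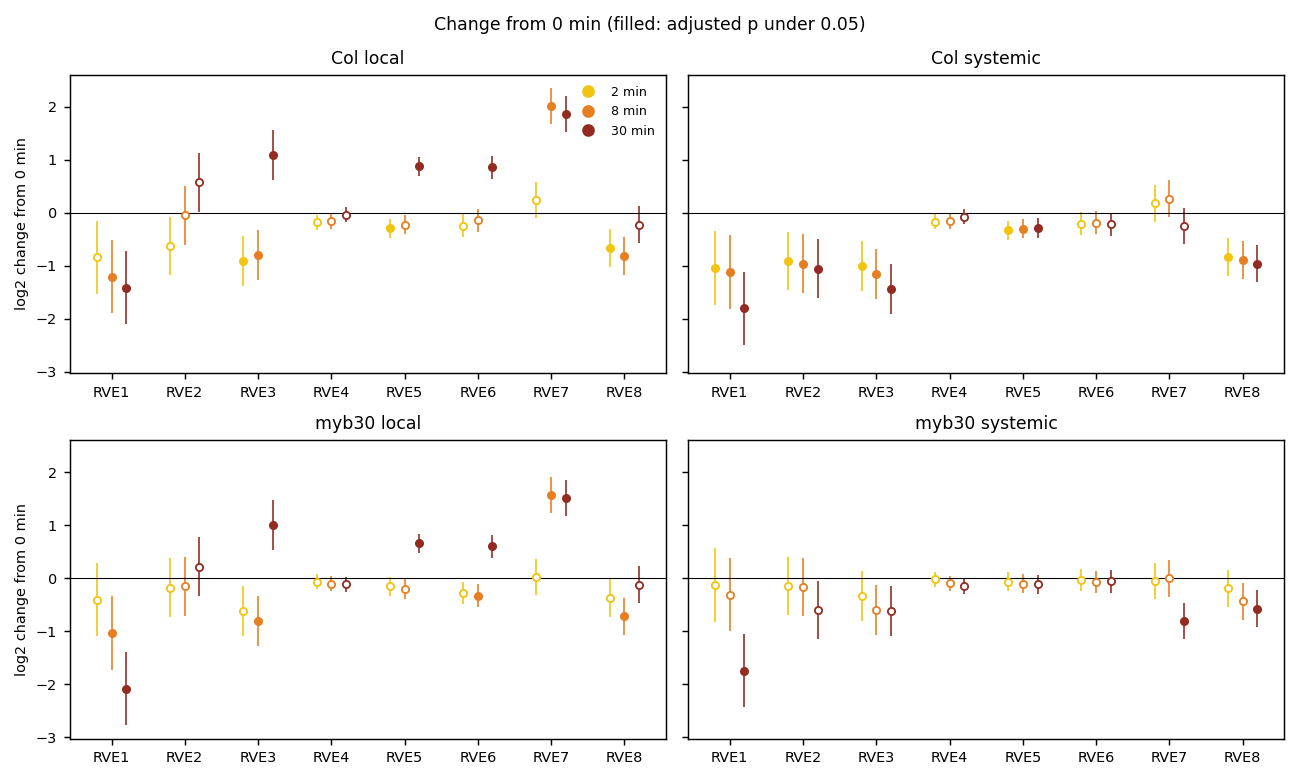
Log2 change from 0 min at 2, 8 and 30 min of high light (y axis) for the 8 genes in each genotype and leaf; bars are 95% intervals from limma and filled points passed an adjusted p of 0.05. Rises (RVE3, RVE5, RVE6 and RVE7) appear in the panels of local leaves, and RVE1 lies below 0 in all 4 panels.

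In systemic leaves no member rose. In Col 5 of 8 fell at each of 2, 8 and 30 min, the same 5 genes each time: RVE1, RVE2, RVE3, RVE5 and RVE8. Of all tested genes 5.48%, 11.4% and 17.0% fell at these times, and 6.36%, 11.1% and 17.7% rose. RVE3 stood at 4577, 5551 and 6069.8 at 0 min, 3018, 2692 and 2339.7 at 2 min, 2458, 2842 and 2003 at 8 min and 1710.3, 2089 and 2189 at 30 min. Its 0 min libraries lay above all later ones, with log2 changes of -1.01, -1.15 and -1.43 (adjusted p = 0.00507, 0.00064 and 1.03e-05). RVE1 stood at 3007, 4973 and 5143 at 0 min and 1247, 1118 and 1309 at 30 min, a log2 change of -1.80 ± 0.34, adjusted p = 8.77e-05. RVE8 stood at 7865, 8634 and 11598 at 0 min and 4650.4, 4768 and 4845 at 30 min, a log2 change of -0.96 ± 0.17, adjusted p = 4.9e-05. Both genes had no overlap between 0 min and any later time. RVE2 changed by -1.06 and RVE5 by -0.28 at 30 min (adjusted p = 0.00266 and 0.0133).

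These falls passed from 2 min on, and no further change passed after that. From 2 to 8 and from 2 to 30 min in Col systemic leaves 0 of 16 values passed by limma, edgeR or DESeq2, 2 had an unadjusted p under 0.05, and the lowest adjusted p was 0.093 (RVE7). Of all tested genes 0.00% and 13.3% passed in these steps. All 5 falls share the 0 min libraries, among them Col systemic 0 min replicate 3, whose genotype label is in doubt: without it RVE3 and RVE8 fell at 2 and 8 min and RVE1, RVE2 and RVE5 did not pass, and at 30 min 4 fell and RVE5 did not pass. The log2 change of RVE5 was -0.19 at 8 min without that library (adjusted p = 0.156), against -0.30 with it, and -0.18 at 30 min (adjusted p = 0.155), against -0.28. Without Col systemic 0 min replicate 1, which was high in WRKY40, all 5 passed at each time. At 2 min RVE1, RVE2 and RVE5 also did not pass without replicate 2 at 2 min, RVE8 alone passed without replicate 3 at 2 min, and RVE1 did not pass without replicate 2 at 0 min. At 8 min RVE1, RVE2 and RVE5 did not pass without replicate 3 at 8 min, RVE5 without replicate 1 at 8 min, and RVE1 without replicate 2 at 0 min. At 30 min RVE5 did not pass without replicate 2 at 30 min.

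In myb30 systemic leaves 0 of 8 passed at 2 min and 0 at 8 min by limma, edgeR or DESeq2, with 0 and 2 unadjusted p under 0.05, where 0.00% and 0.880% of all tested genes passed. At 30 min 3 of 8 fell beside 5.75% of all, and 0 rose beside 5.87%. RVE1 stood at 2759, 3739 and 4616 at 0 min and 799, 1087 and 1434 at 30 min, a log2 change of -1.75 ± 0.34, adjusted p = 0.000835. RVE7 stood at 1038, 1334 and 1109.8 at 0 min and 539, 747 and 719 at 30 min, a log2 change of -0.80 ± 0.17, adjusted p = 0.00178. For both, 30 min lay below 0 min without overlap. RVE8 changed by -0.57 ± 0.17, adjusted p = 0.0257, and did not pass without replicate 3 at 0 min (the library in doubt) or without replicate 1 or 2 at 30 min. From 2 to 30 min RVE1 fell by 1.62 and RVE7 by 0.75 on the log2 scale (adjusted p = 0.0037 and 0.00643) beside 2.57% of all that fell and 2.25% that rose. RVE7 did not pass there without replicate 2 at 2 min or replicate 1 at 30 min.

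The level at 0 min moved with the library number. At 0 min the library numbered 1 was the lowest of its group in 4 of 4 groups for RVE1, RVE2, RVE3, RVE6 and RVE7, and in 3 of 4 for RVE5 and RVE8. For RVE1 the libraries numbered 1 stood at 2759 to 3127 and those numbered 2 and 3 at 3739 to 6964. The dawn genes LHY (18955 to 24181 against 24763 to 42921) and CCA1 (30185 to 33059 against 33531 to 44727) were split in the same way. RVE4 was not: number 1 was the lowest in 1 of 4 groups at 0 min. At 2 min number 1 was the lowest in 2 of 4 groups for RVE1, RVE3, RVE8, LHY and CCA1. At later times it was again the lowest in 4 of 4 groups for RVE7 at 8 and 30 min and for RVE4 at 30 min, and in 3 of 4 for RVE6 at 2 and 8 min and for RVE1 and RVE2 at 30 min. This count was made for the members, LHY and CCA1 only, so whether it holds for other tested genes was not looked at. What a number stands for is not in the labels. Its part in the changes from 0 min was looked at by a block for the number and by leaving out each number. With the block, RVE1 and RVE2 also passed at 2 min in Col local leaves (adjusted p = 0.0322 and 0.0497, against 0.106 and 0.137 without it). RVE2 also passed at 30 min in Col local leaves (0.0256 against 0.0747) and RVE3 at 30 min in myb30 systemic leaves (0.0398 against 0.0742). These are comparisons whose numbers did not pair the libraries. Without number 2, 0 of the 3 local and 0 of the 5 systemic falls at 2 min in Col passed, and the same was found without number 3. Without number 3, 0 of the 5 systemic falls at 8 min in Col passed, and the log2 change of RVE2 there was -0.59 against -0.96, that of RVE5 -0.14 against -0.30, and that of RVE8 in Col local leaves at 2 min -0.44 against -0.66. The change of RVE5 at 30 min was -0.19 without number 3. In myb30 local leaves at 8 min RVE7 alone passed without number 2 and without number 3. Without number 2, RVE2 and RVE5 did not pass in Col systemic leaves at 30 min, RVE2 did not pass between the leaves of myb30 at 30 min, and 0 of the 2 falls from 2 to 30 min in myb30 systemic leaves passed.

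**Figure D4:**
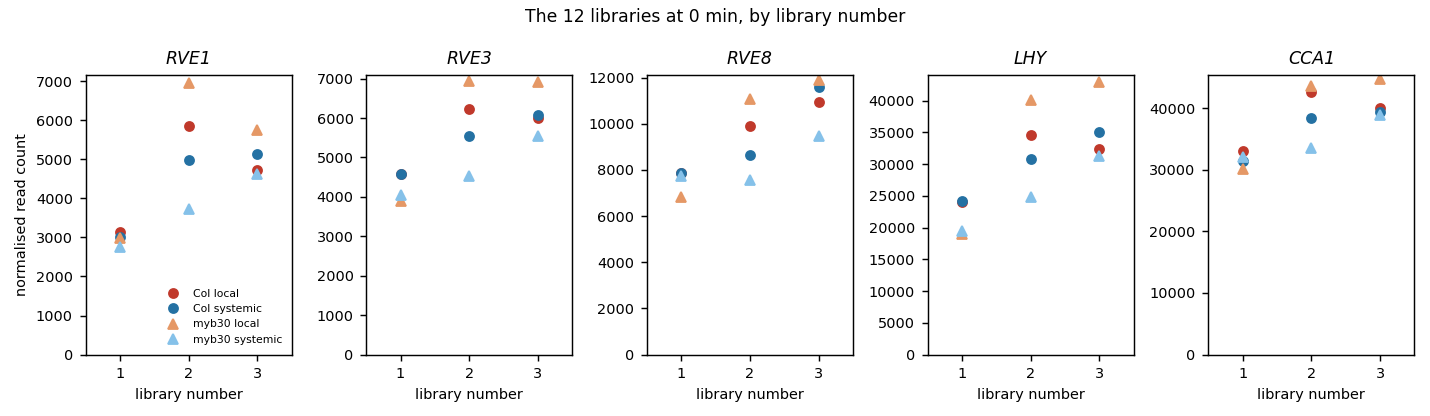
Normalised read counts (y axis, from 0) of RVE1, RVE3, RVE8, LHY and CCA1 in the 12 libraries at 0 min, by library number (x axis); each point is 1 library, coloured by genotype and leaf. Number 1 is the lowest library of all 4 groups for RVE1, RVE3, LHY and CCA1, and of 3 of 4 for RVE8.

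Local and systemic leaves were compared with each other at each time. At 0 and 2 min 0 of 32 member values passed by limma, edgeR or DESeq2 and 2 had an unadjusted p under 0.05, where 0.00% and 0.133% of all tested genes passed in Col and 0.00% and 0.0409% in myb30. At 8 min RVE7 alone passed, with a log2 difference (local minus systemic) of 1.85 ± 0.17, adjusted p = 1.13e-10, in Col and 1.62 ± 0.17, adjusted p = 4.38e-09, in myb30, beside 5.57% and 2.31% of all tested genes higher in local leaves and 4.81% and 1.61% lower. With the library number as a block, which pairs the leaves at 8 min, RVE2 also passed in Col (0.72, adjusted p = 0.0247, against 0.0871 without the block).

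At 30 min 6 of 8 were higher in local leaves in Col and the same 6 in myb30, and none was lower: RVE2, RVE3, RVE5, RVE6, RVE7 and RVE8. Of all tested genes 25.0% and 20.6% were higher in local leaves, and 25.4% and 21.3% lower. RVE3 stood at 10972, 12202 and 12603 in local and 1710.3, 2089 and 2189 in systemic Col leaves, a log2 difference of 2.58 ± 0.23, adjusted p = 8.15e-12. RVE7 stood at 3709, 4038 and 4793 and 695, 908 and 1124, a difference of 2.22 ± 0.17, adjusted p = 1e-13. The differences of RVE5, RVE6, RVE2 and RVE8 in Col were 1.22, 1.18, 1.44 and 0.77, with adjusted p from 5.25e-14 (RVE5) to 0.000328 (RVE8). In all 6 genes and both genotypes every local library lay above every systemic one. Overlap was looked at in members only, so the share of all tested genes that separated in this way is not known. In myb30 the differences ran from 0.68 (RVE8, adjusted p = 0.00158) to 2.36 (RVE7, adjusted p = 2.83e-14).

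The change from 0 min itself differed between the leaves. In that test RVE7 passed at 8 min in both genotypes, beside 2.64% of all tested genes higher and 1.50% lower in Col and 1.09% and 0.184% in myb30. At 30 min the same 6 members were higher in Col, beside 18.4% higher and 18.5% lower, and 4 in myb30 (RVE3, RVE5, RVE6 and RVE7), beside 11.4% and 11.3%. At 2 min 0 of 16 values passed by limma, edgeR or DESeq2, 0 had an unadjusted p under 0.05, and 0.0409% and 0.00% of all tested genes passed.

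In the comparison of leaves at 30 min RVE1 and RVE4 did not pass. RVE1 differed by 0.44, 95% interval -0.25 to 1.13 in Col (adjusted p = 0.293) and by 0.11, 95% interval -0.58 to 0.80 in myb30 (adjusted p = 0.825). RVE4 differed by 0.10, 95% interval -0.04 to 0.24 in Col (adjusted p = 0.237), where it turned to -0.19 with quantile normalisation and to -0.20 with scaling to the same total, and by 0.14, 95% interval -0.01 to 0.28 in myb30 (adjusted p = 0.118). The local libraries of RVE1 in Col and of RVE4 in myb30 nonetheless lay above all systemic ones.

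**Figure D5:**
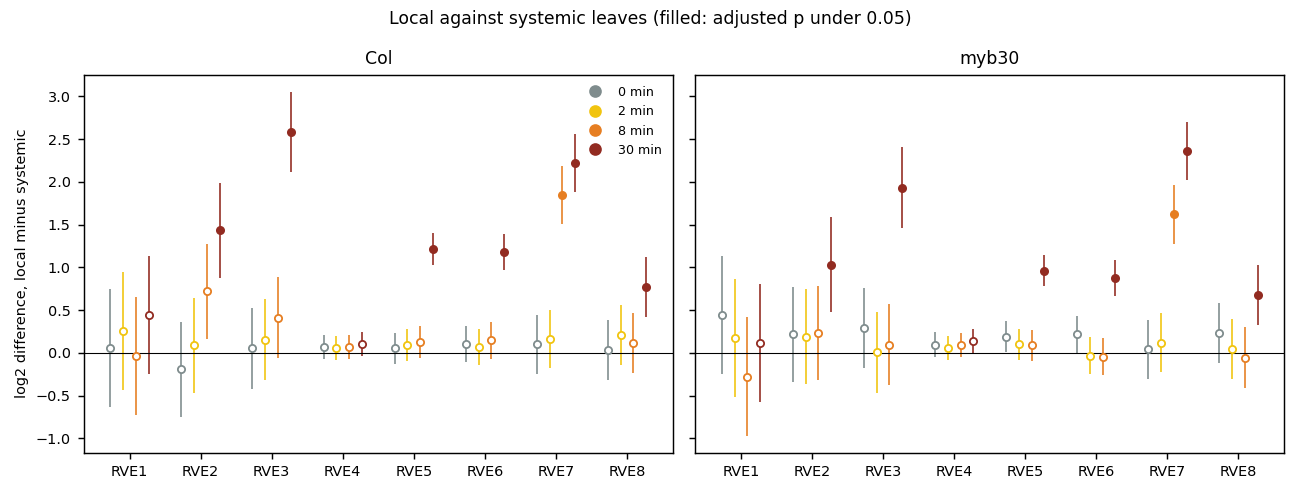
Log2 difference between local and systemic leaves (y axis, local minus systemic) at 0, 2, 8 and 30 min for the 8 genes in Col and myb30; bars are 95% intervals from limma and filled points passed an adjusted p of 0.05. At 8 min only RVE7 is filled, and at 30 min all but RVE1 and RVE4.

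Between the genotypes 0 of 64 member values passed by limma, edgeR or DESeq2, and 4 had an unadjusted p under 0.05. Of all tested genes 0.0102%, 0.373%, 0.0153% and 1.42% passed in local leaves at 0, 2, 8 and 30 min and 0.00%, 0.0767%, 0.0102% and 0.726% in systemic leaves. The log2 differences (myb30 minus Col) ran from -0.51 (RVE1, local leaves at 30 min) to 0.68 (RVE1, systemic leaves at 2 min), and the 95% intervals reached from -1.20 to 1.37. The narrowest were those of RVE4, for example -0.09, 95% interval -0.23 to 0.05 in local leaves at 30 min. RVE7 in local leaves at 30 min differed by -0.29, 95% interval -0.63 to 0.06 (adjusted p = 0.521), and RVE8 in systemic leaves at 2 min, the lowest adjusted p of the 64, by 0.47, 95% interval 0.12 to 0.83 (adjusted p = 0.257). The changes from 0 min did not differ between the genotypes past the threshold either: 0 of 48 values passed by limma, edgeR or DESeq2, 6 had an unadjusted p under 0.05, and 0.00% to 0.276% of all tested genes passed. In systemic leaves, the genotype difference at 0 min and the changes from 0 min use the 2 libraries whose genotype label is in doubt. Whether these were exchanged was not tested. Without both of them no member value passed in these comparisons either. The falls that passed in Col and not in myb30 systemic leaves at 2 and 8 min are therefore not shown to differ between the lines.

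Among the coactivators that RVE8 works with, in Col local leaves 3 of 4 LNK genes fell at 2 min and at 8 min, where 4.75% and 12.7% of all tested genes did. At 30 min LNK1 rose there (0.69, adjusted p = 6.9e-11) while LNK2 (-0.66) and LNK4 (-0.34) fell, beside 27.2% of all that rose and 26.5% that fell. In Col systemic leaves 4 of 4 fell at 2 and 8 min and 3 at 30 min, where 5.48%, 11.4% and 17.0% of all tested genes did. In myb30 local leaves 0 of 4 passed at 2 min (median -0.22), 4 fell at 8 min, and at 30 min LNK1 rose (0.52) and LNK2 and LNK4 fell. Of all tested genes 1.66% passed there at 2 min, 9.25% fell at 8 min, and 22.5% rose and 21.6% fell at 30 min. In myb30 systemic leaves 0 passed at 2 and 8 min (median -0.11 and -0.14), where 0.00% and 0.880% of all tested genes passed. LNK2 and LNK4 fell there at 30 min, beside 5.75% of all. The LNK2 fall there (-0.48, adjusted p = 0.0452) was lost when any single library at 0 or 30 min was left out. The median of the 4 was -0.26 in Col local and -0.39 in Col systemic leaves at 2 min, beside 0.00 over all tested genes. CCA1 and LHY, the dawn repressors, fell together at 2 and 8 min in both leaves of Col. In myb30 both fell in local leaves at 8 min (CCA1 -0.54, adjusted p = 0.00441, and LHY -1.16, adjusted p = 0.00737). Both also fell in myb30 systemic leaves at 30 min (-0.49, adjusted p = 0.0151, and -1.09, adjusted p = 0.0176). Neither of these myb30 falls passed for either gene without replicate 3 at 0 min of the same leaf. At 2 min in Col local leaves CCA1, LHY and the 3 LNK genes that fell did not pass without replicate 2 at 0 min, nor without replicate 3 at 2 min, in fits for listed genes added after the data were seen, and LNK3 changed by -0.16 without the latter. At 2 min in Col systemic leaves LHY and the 4 LNK genes did not pass without replicate 3 at 2 min, nor LNK1 and LNK2 without replicate 3 at 0 min, whose genotype label is in doubt. At 8 min single libraries ended the calls of LNK3 and LNK4 in Col local leaves and of LNK1 and LNK2 in Col systemic leaves. In myb30 local leaves at 8 min none of the 4 LNK falls passed without replicate 2 or 3 at 0 min, or without replicate 1 at 8 min. LNK2 at 30 min in myb30 local leaves did not pass without replicate 2 at 0 min. At 30 min in local leaves of Col the dawn pair parted, with CCA1 at 51358, 54378 and 56139.9 against 33059, 42618 and 39959 at 0 min (0.49 ± 0.14, adjusted p = 0.00242) and LHY at 13893, 12922 and 14314 against 23999.6, 34638 and 32343 (-1.13 ± 0.31, adjusted p = 0.00248). CCA1 lay above and LHY below its 0 min libraries, without overlap.

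Of 11 day and evening clock genes, many of them known targets of the evening-element factors, 6 rose and 0 fell in Col local leaves at 30 min, and 6 rose and 0 fell in myb30, where 27.2% and 22.5% of all tested genes rose and 26.5% and 21.6% fell. They include GI, a regulator of flowering time (1.83 in Col, adjusted p = 1.06e-08), the repressor PRR9 (1.24), LUX, of the evening complex (0.98), and PRR7 (0.88). The other 2 in Col, ELF3 and TOC1, did not pass in Col without replicate 1 (ELF3) or replicate 2 (TOC1) at 0 min, nor TOC1 without replicate 1 at 30 min, and neither passed in myb30 without replicate 3 at 0 min (ELF3 changed by 0.28 there). In Col systemic leaves at 30 min 3 rose (ELF3, PRR7 and TOC1) and PRR9 fell by 0.59 on the log2 scale (adjusted p = 0.00012), where 17.7% of all tested genes rose and 17.0% fell.

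Of 10 genes reported elsewhere as downstream of single REVEILLE factors, 5 rose and 2 fell in Col local leaves at 30 min, where 27.2% of all tested genes rose and 26.5% fell. ERF53 and ERF54, which RVE4 and RVE8 are known to induce in heat, stood at 22.2, 42.2 and 19.5 and 11.1, 28.5 and 15.6 at 0 min, and at 2640.4, 2435 and 2242 and 1599, 1324 and 1555 at 30 min, log2 changes of 6.48 ± 0.48, adjusted p = 8.52e-14, and 6.36 ± 0.45, adjusted p = 2.25e-14. In Col systemic leaves they stood at 44.2, 65.7 and 30.9 and 21.6, 17.6 and 15.9 at 0 min. At 30 min they stood there at 129.6, 112 and 79.0 and 46.8, 71.1 and 56.0, above 0 min without overlap. RVE4 did not change past the threshold in the same libraries, as given above. The other 3 that rose were CBF1 (2.74), CBF2 (1.47) and CBF3 (2.34), cold-response factors that RVE4 and RVE8 are known to activate in the cold. The size of the CBF1 and CBF2 changes turned on single libraries. Without Col local 0 min replicate 3, the library high in WRKY40, CBF1 changed by 4.80 (adjusted p = 5.51e-05) and CBF2 by 2.45 (adjusted p = 0.000314). CBF1 did not pass without replicate 1 (1.85) or replicate 2 (1.58) at 0 min or replicate 3 at 30 min (2.49). CBF2 did not pass without replicate 1 (0.73) or replicate 2 (1.24) at 0 min or replicate 1 (1.53) or replicate 3 (1.28) at 30 min. In Col local leaves the means of all 3 were higher at 8 than at 30 min: 149 and 70.8 (CBF1), 971 and 293 (CBF2), 345 and 278 (CBF3). Only for CBF3 did the libraries at 8 and 30 min overlap. All 3 genes were also higher in Col systemic leaves at 8 min than at 0 min. PIF5, a transcription factor gene that RVE8 and its relatives are known to repress, fell by 0.98 (adjusted p = 6.73e-17). Its relative PIF4, also on the list, changed by -0.20 there (adjusted p = 0.0867) and at 30 min rose by 0.71 in systemic Col leaves (adjusted p = 1.39e-06). PORA, a chlorophyll synthesis enzyme that RVE1 is known to activate, rose in Col systemic leaves from 167, 213 and 99.5 to 666, 859 and 659.7 at 30 min (2.24 ± 0.30, adjusted p = 4.64e-07), where RVE1 fell. GA3OX2, also on the list, stood there at 89.5, 56.4 and 70.7 at 0 min and 26.1, 21.7 and 19.3 at 30 min. In myb30 local leaves at 30 min GA3OX2 rose by 0.99 (adjusted p = 0.0182). That rise did not pass without replicate 2 at 0 min or replicate 1 or 2 at 30 min. YUC8, the auxin synthesis gene that RVE1 is known to activate, fell by 1.54 on the log2 scale in local Col leaves at 30 min (adjusted p = 0.00262) and changed by 0.63 in systemic leaves (adjusted p = 0.258). Its counts were low: 17.1, 15.8 and 21.4 at 0 min and 3.56, 7.17 and 6.45 at 30 min in local Col leaves.

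The genes whose group means followed each member most closely were found among all tested genes by Pearson's r over the 16 groups, as a description. RVE5 and RVE6 followed each other (r = 0.989) and both had LNK1 among their 3 closest genes (r = 0.994 and 0.992), with DGD1, a galactolipid synthase of plastids, also among those of RVE5 (r = 0.994). The closest to RVE3 was AT4G10430 (r = 0.993), and RVE3 and CCA1 had r = 0.987. The closest to RVE8 were the MADS-box gene AGL65 (r = 0.989) and the kinase gene WNK6 (r = 0.986). RVE1 was closest to AT2G35820 (r = 0.968) and AT1G55960 (r = 0.968), then to PAL2, an enzyme of phenylpropanoid synthesis (r = 0.965). RVE2 was closest to AT5G63000 (r = 0.969) and RVE4 to AT1G51200 (r = 0.929). RVE7 was closest to cPT5 (r = 0.979), the zinc transporter gene ZIP4 (r = 0.973) and AT1G15810 (r = 0.973), with Spearman's rho of 0.724 to 0.791. For the other pairs named here rho ran from 0.915 to 0.991.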

How the data were processed

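The deposited table holds a signal, which the authors made by dividing reads per gene by a size factor for each library; the factors recovered from its low values match the median-of-ratios method. Tools and build in the submitters' processing notes are DESeq2 1.20.0, STAR 2.4.0.1, FastQC 0.11.7, cutadapt 1.18 and TAIR10, with no counting tool given in the sources used here. After multiplication by the factors (0.776 to 1.17), 100% of 1084756 values above 0 were whole within 1e-06, and these counts served edgeR 4.0.16 and DESeq2 1.42.0. Times were read from titles (6 Col libraries titled 30 min carry a second label of 0 min). No library was a copy of another in its group (chi-square per gene between 15.9 and 71.3 for the 48 pairs within groups). Pairs from different groups were not compared in this way.

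The main test was limma 3.58.1 (R 4.3.3, trend) on log2(value + 1), which understates changes of low genes, for 19556 genes with a mean of 10 or more, in a single model of 16 group means. P-values were adjusted by Benjamini-Hochberg over all these genes within a comparison, with a threshold of 0.05. The script was tested on simulated data. The members, lists and motifs were chosen with earlier results of these data known. Named genes were all members, list members in the comparisons described, and up to 3 genes most alike each member. Alternatives were edgeR, DESeq2, pseudocounts of 0.5 and 8, no filter, quantile normalisation, scaling to the same total, a block for the library number, the compared groups alone, and libraries left out; leaving out libraries for the listed genes that are not members was chosen after seeing the data. Numbers were taken to pair libraries where every same-numbered pair deviated from the group means with a correlation over 0.1, which held in 15 of 36 comparisons. Sequences and lengths are from RefSeq TAIR10.1, compared with Biopython 1.88 and BLAST 2.17.0.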

Additional observations from a re-analysis of the deposited data

Results flagged for a closer look

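The change from 0 min differed between local and systemic leaves, by a direct test of that difference, for 7 member values in Col and 5 in myb30, and each of them was higher in local leaves. In Col at 30 min the log2 differences were 1.63 for RVE2 (adjusted p = 0.000928), 2.53 for RVE3 (8.63e-08), 1.16 for RVE5 (2.32e-09), 1.08 for RVE6 (3.16e-07), 2.12 for RVE7 (4.28e-09) and 0.73 for RVE8 (0.0174), where 18.4% of all tested genes were higher. In myb30 at 30 min they were 1.64 for RVE3 (0.000207), 0.77 for RVE5 (1.17e-05), 0.66 for RVE6 (0.000906) and 2.32 for RVE7 (9.39e-10), where 11.4% were. At 8 min RVE7 passed with 1.74 in Col (adjusted p = 2.13e-06) and 1.58 in myb30 (2.44e-05), where 2.64% and 1.09% of all tested genes were higher. The RVE8 value did not pass without Col local 0 min replicate 1 or without Col systemic 0 min replicate 3, nor with quantile normalisation or scaling to the same total, and it did not pass without replicate 2 or without replicate 3 of every group. The value of RVE2 did not pass without replicate 2 of every group.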

How the results depend on the processing

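Of 384 member values, 81 passed, 53 of them under every alternative run and each of the 81 with the same direction, 26 passed only under some alternative and 277 under none. Of 24 member values per genotype and leaf, 12 passed in Col local leaves (7 to 15 with a library or number left out), 15 in Col systemic leaves (4 to 17, and 8 without the 2 libraries in doubt), 10 in myb30 local leaves (6 to 15, and 6 with the compared groups alone) and 3 in myb30 systemic leaves (2 to 4). Of 16 changes after 2 min, 7, 0, 6 and 2 passed in the same order. In Col systemic leaves 1 passed with the replicate block, 1 with the compared groups alone and 0 to 1 with libraries left out, and in myb30 systemic leaves 0 with the compared groups alone and 0 to 2 with libraries left out. Of 64 genotype differences 1 passed with the replicate block (RVE7, systemic leaves at 30 min, -0.43, adjusted p = 0.0431), in a comparison whose numbers did not pair. The block gave 15, 15, 10 and 4 time responses and changed no other call in a paired comparison than the one given for RVE2. RVE4, not called, reversed in Col at 30 min: the leaf difference was -0.187 with quantile normalisation and -0.203 with scaling to the same total, and the leaf by time difference -0.295 with the latter. The cause was not tested. Scaling to the same total moved the median of all genes by -0.33 in Col local and -0.16 in myb30 local leaves at 30 min. DESeq2 gave no adjusted p for 5 member values.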

Other observations

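Within groups, the deviations of the 48 libraries from their group means moved together for most members and the dawn genes. Both values of a point come from 1 library, so these are a description. RVE3 and CCA1 had Pearson's r = 0.938 and Spearman's rho = 0.939, RVE3 and LHY 0.921 and 0.91, RVE8 and CCA1 0.914 and 0.891, and RVE1 and CCA1 0.873 and 0.889. RVE7 and RVE8 were the least alike of the 28 pairs of members, with r = 0.197 and rho = 0.116. Over the 16 group means RVE7 and RVE8 had r = 0.0698 and RVE1 and RVE3 0.0833, whereas RVE3 and RVE5 had 0.944.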
